A study of Mus musculus with 2 samples.

Results

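Dividing cells were selected on measured values: they were the barcodes in which at least 4 of 8 genes of mitosis and of the preceding phase of the cell cycle, Mki67, Top2a, Birc5, Cdk1, Ube2c, Ccnb1, Cenpf and Tpx2, had at least 1 unique molecular identifier (UMI, 1 counted RNA molecule). They numbered 360 of 16521 cells: 244 of 8664 in the library treated with DMSO, the solvent control, and 116 of 7857 in the library treated with an inhibitor, whose name the labels leave out. A cell was a barcode with at least 200 genes detected and at most 20% of its UMIs from mitochondrial genes. Both libraries came from aorta of 12-week Apoe-/- mice, which lack apolipoprotein E and have high blood cholesterol, in which angiotensin II (Ang II), a hormone that constricts vessels, had induced an aneurysm of the abdominal aorta. The Apoe-/- genotype, the Ang II and the aneurysm are shared by the controls. The tissue was cut into 5 segments and digested with enzymes, and RNA was captured from single cells by the 10x 3′ method, version 3. Each group is 1 library, and the labels do not say how many animals it held. Every difference between them therefore compares these 2 libraries, not the treatments, and has no replicate check. Intervals of shares and ratios are exact 95% intervals, and the limit beside a count of 0 is 3 counts of the total. Both cover counting error only.

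A cell that divides first copies its DNA in S phase, with the help of replication factors such as Pcna and the Mcm helicase, and then builds a spindle, separates its chromosomes and splits. Most genes of the mitotic machinery are switched off in resting cells and on late in the cycle, so their RNA marks cells that are close to division. The wall of the artery holds smooth muscle cells in the media, fibroblasts in the adventitia, an endothelial lining and, in an aneurysm, many leukocytes, and most of its resident cells are at rest in the healthy adult.

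The rule genes cover several steps of that machinery. Mki67 coats mitotic chromosomes, Top2a untangles DNA strands, Cdk1 is the kinase that starts mitosis and Ccnb1 is its cyclin. Ube2c is the ubiquitin-conjugating enzyme of the anaphase-promoting complex, Birc5 (survivin) belongs to the chromosomal passenger complex, Cenpf binds kinetochores and Tpx2 assembles spindle microtubules. Their promoters share short motifs. The 150 bases before the start site are shown for 5 of them, because these genes chose the cells and their promoters hold 2 elements known from late cell cycle genes (RefSeq, GRCm38.p6, 5′ to 3′ in the direction of transcription). Capitals mark the motifs TTTGAA or TTTAAA (the cell cycle homology region), CCAAT (the NF-Y box) and TTTCGCGC or TTCCCGCC (E2F) or their complements, since both strands were read.
Mki67: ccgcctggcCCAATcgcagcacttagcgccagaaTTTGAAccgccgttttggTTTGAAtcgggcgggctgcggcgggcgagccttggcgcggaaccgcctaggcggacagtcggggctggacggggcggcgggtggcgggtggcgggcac
Top2a: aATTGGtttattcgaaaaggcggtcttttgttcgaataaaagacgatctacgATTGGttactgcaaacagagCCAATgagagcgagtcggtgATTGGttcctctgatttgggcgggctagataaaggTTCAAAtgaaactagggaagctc
Cdk1: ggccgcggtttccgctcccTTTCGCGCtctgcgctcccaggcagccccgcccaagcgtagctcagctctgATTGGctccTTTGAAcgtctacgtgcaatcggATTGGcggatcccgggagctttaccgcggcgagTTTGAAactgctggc
Ube2c: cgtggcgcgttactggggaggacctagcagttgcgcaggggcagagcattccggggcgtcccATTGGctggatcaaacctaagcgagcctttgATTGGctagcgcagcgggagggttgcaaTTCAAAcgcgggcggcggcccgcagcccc
Ccnb1: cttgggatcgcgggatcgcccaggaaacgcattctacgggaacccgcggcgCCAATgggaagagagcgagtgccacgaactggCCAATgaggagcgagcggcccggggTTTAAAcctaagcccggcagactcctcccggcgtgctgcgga
The windows lie at chr7:135716380-135716529 (Mki67, minus strand), chr11:99024190-99024339 (Top2a, minus strand), chr10:69352913-69353062 (Cdk1, minus strand), chr2:164769779-164769928 (Ube2c, plus strand) and chr13:100786487-100786636 (Ccnb1, minus strand). Each of these 5 windows holds a cell cycle homology region and at least 1 CCAAT box. Of the other 2 rule genes with an entry, Birc5 has neither in its 150 bases and Cenpf has CCAAT alone. Over promoters of 300 bases (250 before to 50 after the start), 7 of the 8 rule genes matched an entry, and all 7 held TTTGAA or TTTAAA, against 48.5% of 103 promoters of 90 matched cell cycle genes and 27.6% of all 32851 promoters. CCAAT was in 6 of the 7 promoters (85.7%), in 64.1% of those of the cell cycle genes and in 37.4% of all. The E2F motif TTTCGCGC was in 1 of the 7, that of Cdk1, in 3.88% of the cell cycle promoters and in 0.323% of all, and TTCCCGCC was in 0 of the 7, 3.88% and 2.19%. A match describes the letters only.

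The libraries held 9125 (DMSO) and 8149 (inhibitor) barcodes with 101139161 and 79648307 UMIs. The median cell had 8004 and 9092 UMIs, and 16 barcodes occurred in both libraries. The dividing cells were deeper than the rest. Their median was 20173 UMIs and 5136 genes in the DMSO library, against 7789 UMIs and 2816 genes in the other cells, and 24786 UMIs and 5433 genes in the inhibitor library, against 9007 and 2935. Mitochondrial genes took a median of 2.63% and 2.26% of the UMIs of dividing cells and 4.43% and 4% of those of other cells. A doublet caller marked 7 dividing cells (2.87%) in the DMSO library and 8 (6.90%) in the inhibitor library, close to the 2.92% and 5.58% of other cells. The DMSO library also held sets of barcodes whose counts agree within sampling noise. Of its 244 dividing barcodes, 43 fell into such sets, and no dividing barcode of the inhibitor library did. More than 1 dividing barcode was held by 13 of the sets, with at most 11 in a set. Of the barcodes deep enough to be judged, 18% of dividing and 3.47% of other DMSO barcodes were in a set, and 0 and 0.358% of those of the inhibitor library. Shares, lineage counts, counts of genes and the values of smooth muscle-like cells, in which these sets weigh most, are given with every barcode and with each set counted once.

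In the dividing cells the rule genes were abundant, which the rule itself fixes in part. Mki67 (chr7:135689784-135716361) had a UMI in 88.5% of DMSO dividing cells, with a median of 6.5 and a highest of 70 UMIs, and in 96.6% of inhibitor dividing cells, with a median of 9 and a highest of 49. Its level over the summed cells was 395 and 394 CPM (counts scaled to a common total of UMIs), against 3.71 and 1.76 CPM in the other cells. Top2a (chr11:98992943-99024189) had a median of 4 and 7.5 UMIs, a highest of 73 and 55, and 404 and 402 CPM, against 5.54 and 3.17 CPM in other cells. The levels of Mki67 and Top2a in dividing cells were therefore nearly equal between the libraries, while both were higher in the remaining cells of the DMSO library. Cdk1 (chr10:69335146-69352938) had a UMI in 78.7% and 91.4% of dividing cells, at 196 and 233 CPM. Ube2c (chr2:164769898-164778822) had one in 77.9% and 82.8%, at 395 and 442 CPM, with up to 129 and 134 UMIs in a cell. Ccnb1 (chr13:100778650-100786570) was the least detected of the 8, in 59.0% and 56.0% of dividing cells, at 108 and 85.7 CPM. Birc5 was found in 90.6% and 91.4%, Cenpf in 78.3% and 77.6%, and Tpx2 in 79.1% and 87.9%. For background, among neutrophil-like cells, a type that has left the cell cycle when mature, Mki67 had a UMI in 2 of 149 DMSO cells (1.34%, at a median of 1891 UMIs) and in 0 of 25 inhibitor cells.

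**Figure D1:**
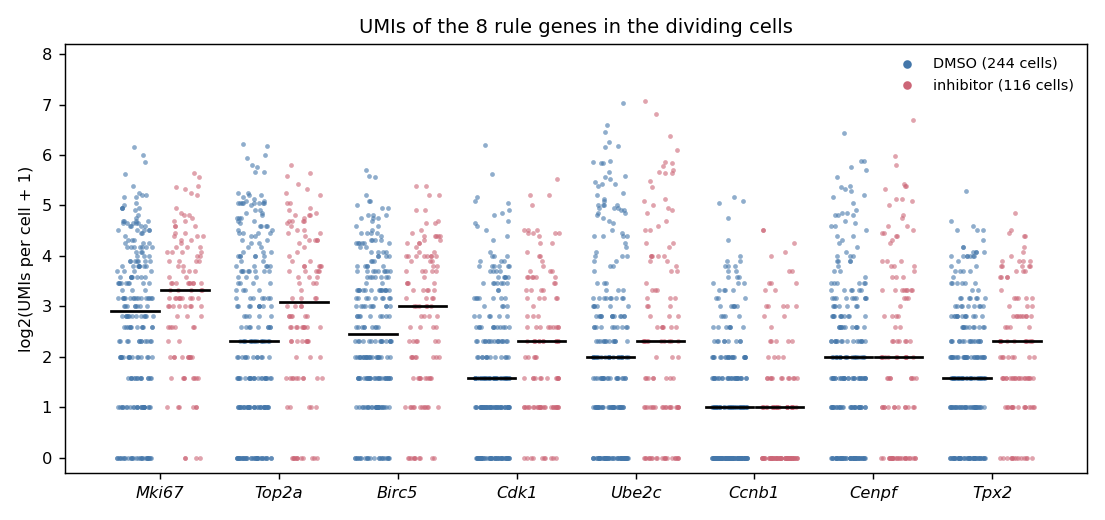
UMIs per dividing cell for the 8 rule genes in the DMSO (244 cells) and inhibitor (116 cells) libraries. Mki67 and Birc5 are found in most cells of each library, and Ccnb1 in 59.0% and 56.0%.

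The cut at 4 genes passed through a continuous range. In the DMSO library 46 cells had exactly 4 of the 8 genes, with a median of 9 UMIs over them, and 59 cells just outside had exactly 3, with a median of 4 UMIs. In the inhibitor library these numbers were 10 cells with 10.5 UMIs and 18 cells with 4.5 UMIs. At the other end 84 DMSO and 49 inhibitor cells had all 8 genes, with medians of 104 and 98 UMIs. A second set of 8 mitotic genes that the rule did not use marked 167 of the 244 DMSO dividing cells (68.4%) and 89 of the 116 inhibitor dividing cells (76.7%) by the same cut of 4 genes, and 2 of 8420 and 3 of 7741 other cells. Among cells at exactly 4 rule genes it marked 8 of 46 and 2 of 10, and among those at exactly 3 it marked 1 of 59 and 1 of 18. Most members thus also carried mitotic genes outside the rule, and few of those near the cut did. Genes of DNA copying were on in many of the same cells: at least 4 of Rrm2, Tyms, Tk1, Cdc45, Cdc6, Gins2, Mcm5 and Pola1 had a UMI in 130 DMSO (53.3%) and 84 inhibitor (72.4%) dividing cells. Another 57 and 37 cells passed this S phase cut but not the rule.

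Dividing cells were a larger share of the DMSO library. They made up 2.82% of its cells (244 of 8664, interval 2.48 to 3.19) and 1.48% of the cells of the inhibitor library (116 of 7857, interval 1.22 to 1.77), 1.91-fold lower. With like barcodes counted once the shares were 2.55% (216 of 8484, 2.22 to 2.90) and 1.48% (116 of 7845), 1.72-fold lower. The intervals did not overlap in either count. With every cell thinned to 3000 UMIs, which left out 1936 and 1323 shallower cells, the shares were 1.69% and 0.918%. The size of the gap moved with the treatment of smooth muscle-like cells. Under the inhibitor 12 of 3341 such cells were dividing, and under DMSO 14 of 695. Without smooth muscle-like cells the shares were 2.89% and 2.30%, or 2.68% and 2.31% with like barcodes counted once, and 2.62% and 1.69% with lineages taken from clusters. The ratio of the shares was 0.524 (0.417 to 0.657) over all cells, 0.798 (0.627 to 1.01) without smooth muscle-like cells and 0.862 (0.674 to 1.10) without them and with like barcodes counted once, so the last 2 intervals included 1. By clusters it was 0.643 (0.487 to 0.841). Weighted to the makeup of both libraries pooled, they were 2.71% and 1.84%, or 2.31% and 1.83% with like barcodes counted once, and 3.21% and 1.61% by clusters. The DMSO library had the larger share in each of these counts. Single-cell capture, not only the tissue, sets how many cells of a type a library holds, and its part in the shares was not tested.

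Lineages were given to single cells from panels of marker genes, and a cell with a strong second panel was called mixed. Of the 244 DMSO dividing cells, 74 were fibroblast-like (30.3%), 48 macrophage-like (19.7%), 22 endothelial-like (9.02%), 14 smooth muscle-like (5.74%), 9 T cell-like, 5 dendritic-like, 3 NK cell-like, 3 pericyte-like and 1 adipocyte-like, 41 were mixed and 24 had no lineage. When like barcodes were counted once, 67 of 216 were fibroblast-like, 7 smooth muscle-like, 2 pericyte-like and 28 mixed, and the other numbers were the same. Of the 116 inhibitor dividing cells, 41 were fibroblast-like (35.3%), 29 macrophage-like (25.0%), 12 smooth muscle-like (10.3%), 10 endothelial-like (8.62%), 2 dendritic-like and 1 T cell-like, 11 were mixed and 10 had no lineage. Fibroblast-like and macrophage-like cells were thus the most frequent named dividing cells in each library. The most frequent mixed pair among DMSO dividing cells was fibroblast with smooth muscle, in 15 cells, and the doublet caller marked 7 of the 41 mixed cells (17.1%) and none of the other DMSO dividing cells. In the inhibitor library it marked 3 of the 11 mixed dividing cells, 2 of the fibroblast-like, 2 of the smooth muscle-like and 1 without a lineage. A stricter limit on the second panel would move 16 and 6 dividing cells.

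How often each lineage divided differed in direction between lineages. Fibroblast-like cells divided in 3.01% of DMSO cells (74 of 2461, 2.37 to 3.76) and 1.93% of inhibitor cells (41 of 2129, 1.39 to 2.60), a log2 share ratio of -0.64, or -0.53 with like barcodes counted once. Macrophage-like cells went the other way, with 3.27% (48 of 1468, 2.42 to 4.31) and 4.57% (29 of 634, 3.08 to 6.50), a log2 ratio of 0.48. The ratio of the shares was 0.640 (0.426 to 0.95) in fibroblast-like cells, an interval that left out 1, but 0.693 (0.458 to 1.04) with like barcodes counted once. In macrophage-like cells it was 1.40 (0.851 to 2.26), an interval that included 1. Endothelial-like cells divided in 2.49% (22 of 885, 1.56 to 3.74) and 1.94% (10 of 516, 0.933 to 3.54), a ratio of 0.780 (0.330 to 1.72). That interval included 1, and the direction turned when at least 5 or at least 6 rule genes were required. Smooth muscle-like cells divided in 2.01% of DMSO cells (14 of 695, 1.11 to 3.36) and 0.359% of inhibitor cells (12 of 3341, 0.186 to 0.627), a log2 ratio of -2.49 and a ratio of 0.178 (0.0753 to 0.415). Of the 14 DMSO cells, 8 belonged to the set with 11 dividing barcodes. Counted once, 7 of 684 cells were left (1.02%, 0.412 to 2.10), the log2 ratio was -1.51 and the ratio 0.351 (0.127 to 1.05), an interval that included 1. With lineages taken from clusters the log2 ratios were -2.12 for fibroblast, -1.93 for smooth muscle, -0.65 for endothelial and 0.23 for macrophage clusters.

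Lymphoid and myeloid cells other than macrophages gave few dividing cells. T cell-like cells divided in 9 of 205 DMSO cells (4.39%, 2.03 to 8.17) and 1 of 59 inhibitor cells (1.69%), NK cell-like cells in 3 of 18 and 0 of 3, and dendritic-like cells in 5 of 89 and 2 of 43. No dividing cell was Schwann-like (0 of 352, which allows a share of up to 0.852%, and 0 of 187), neutrophil-like (0 of 149, up to 2.01%, and 0 of 25), lymphatic endothelial-like (0 of 61 and 0 of 45) or B cell-like (0 of 35 and 0 of 1). Such a count limits the barcodes that meet the rule, not the cells that divide, because shallow cells can miss 4 genes: the medians were 1891 and 1616 UMIs in neutrophil-like and 4838 and 3938 UMIs in Schwann-like cells. At these cell numbers, a share of division like that of fibroblast-like cells was below what could be seen in lymphatic endothelial-like and B cell-like cells.

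**Figure D2:**
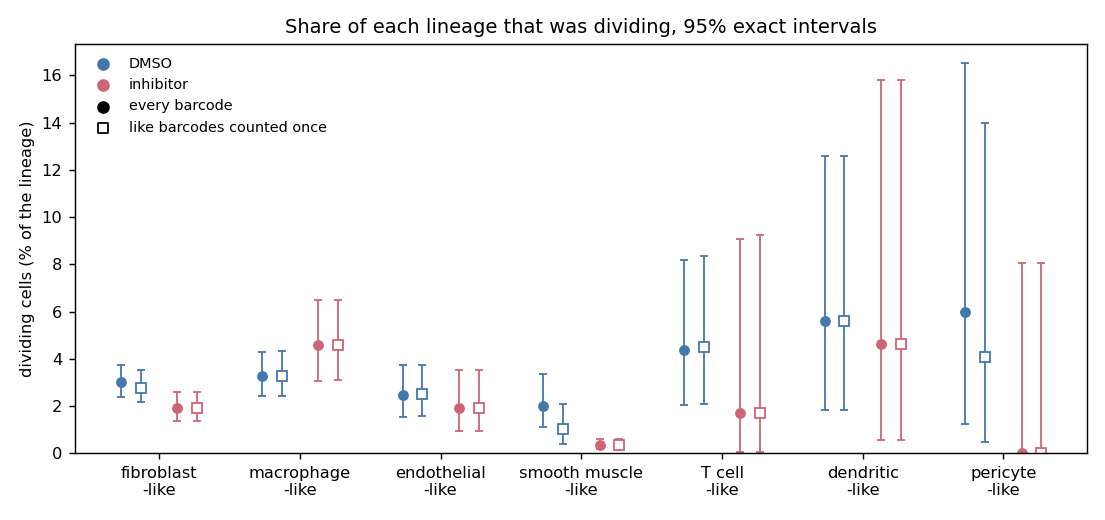
Percentage of the cells of each lineage that were dividing in the DMSO and inhibitor libraries, with exact 95% intervals (counting error only). Macrophage-like cells are higher in the inhibitor library (4.57% against 3.27%), and fibroblast-like, endothelial-like and smooth muscle-like cells are lower there. The endothelial-like direction turned with stricter cuts of the rule.

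The marker genes below belong to the panels that gave the lineages, so their high UMIs in their own lineage were partly fixed by the call. Dcn (decorin, a matrix proteoglycan of fibroblasts; chr10:97479609-97518143) had 4 to 629 UMIs, median 168, in the 74 DMSO fibroblast-like dividing cells and 9 to 465, median 138, in the 41 of the inhibitor library. Acta2 (smooth muscle actin; chr19:34241090-34255590) had a median of 12 and 18 UMIs in the same cells but reached 362 and 378. In smooth muscle-like dividing cells Acta2 ran from 76 to 459 UMIs, median 131.5, in the DMSO library and from 147 to 929, median 294, in the inhibitor library. The DMSO cells of this class carried Dcn as well, with 2 to 36 UMIs and a median of 22.5, and those of the inhibitor library 0 to 35 with a median of 1. That DMSO median rests mainly on the set of 8 like barcodes: counted once, the 7 cells had a median of 12 Dcn and 196 Acta2 UMIs. C1qa (a complement subunit of macrophages; chr4:136895917-136898803) had 0 to 174 UMIs, median 64, in DMSO and 7 to 173, median 50, in inhibitor macrophage-like dividing cells, where the medians of Dcn were 1 and 0 and those of Acta2 1 and 3. Pecam1 (an adhesion molecule of endothelium; chr11:106654217-106750628) had 7 to 94 UMIs, median 26.5, and 8 to 112, median 43.5, in endothelial-like dividing cells. Single cells of that class held up to 190 and 223 Dcn UMIs and up to 292 and 380 Acta2 UMIs. Cd3e (a subunit of the T cell receptor complex; chr9:44998740-45009627) had 0 to 11 UMIs, median 2, in the 9 T cell-like DMSO dividing cells, 4 in the 1 inhibitor cell, and 0 in every fibroblast-like, smooth muscle-like, macrophage-like and endothelial-like dividing cell.

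Dividing stromal cells often had Dcn and Acta2 together. Cells were clustered without the listed cell cycle genes, but other genes of the cycle, such as Pclaf and Cdca3, were not left out. Cell cycle RNA could therefore still shape the clusters. In this clustering, cluster 14 held 35 dividing of 219 DMSO cells (16%, 11.4 to 21.5) and 35 of 142 inhibitor cells (24.6%, 17.8 to 32.6). The cluster thus held 14.3% and 30.2% of all dividing cells. Its dividing cells had a median of 86 and 100 UMIs of Dcn and of 77 and 88 UMIs of Acta2. The panels called 23 and 25 of them fibroblast-like, 3 and 4 smooth muscle-like and 6 and 3 mixed, while the cluster as a whole was called smooth muscle. For that reason the calls by cluster differ: they gave 65 and 14 fibroblast, 39 and 41 smooth muscle, 76 and 40 macrophage and 33 and 14 endothelial dividing cells. The macrophage numbers include cluster 18, with 49 dividing of 166 DMSO cells (29.5%) and 29 of 109 inhibitor cells (26.6%). Of these dividing cells the panels called 22 and 17 macrophage-like, 6 and 1 fibroblast-like and 12 and 4 mixed. Within cluster 14 the dividing cells had more Dcn than the others (3171 and 3002 CPM against 1427 and 906) and less Acta2 (3474 and 3494 against 8884 and 12629) and less Myh11, the smooth muscle myosin (259 and 282 against 1118 and 1573). Col1a1, a chain of fibrillar collagen, stood at 10461 and 8341 CPM against 8734 and 5532. Other matrix genes of fibroblasts were not higher in the dividing cells: Lum (lumican) stood at 1291 and 1289.7 CPM against 2542 and 1300.3, and Postn (periostin) at 951 and 805 against 1884 and 1739. The calls thus cut a range of cells between fibroblast and smooth muscle.

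**Figure D3:**
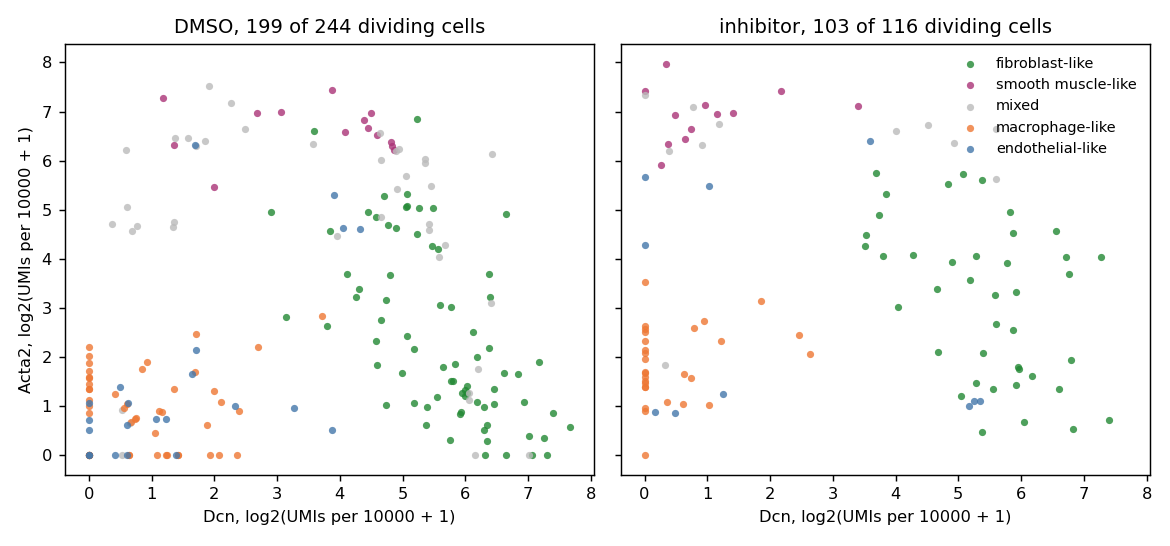
Dcn against Acta2, in UMIs per 10000 (log2 scale), in dividing cells of the DMSO and inhibitor libraries, coloured by lineage call. Only fibroblast-like, smooth muscle-like, macrophage-like, endothelial-like and mixed cells are drawn. In UMIs per cell, fibroblast-like cells have Dcn medians of 168 and 138 and reach up to 362 and 378 for Acta2.

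The smooth muscle-like dividing cells differed between the libraries in their clusters and in other genes. Of the 14 in the DMSO library, 10 lay in cluster 4, which as a whole was called fibroblast, and counted once these were 3. None of the 12 in the inhibitor library lay there: 4 were in cluster 1, 1 in cluster 9, 4 in cluster 14 and 3 in cluster 18, which as a whole was called macrophage. Those 3 held 0 to 55 C1qa and 73 to 365 Cd74 UMIs (the MHC class II invariant chain), and the doublet caller marked 2 of them. Without cluster 18, 14 of 682 DMSO and 9 of 3294 inhibitor smooth muscle-like cells were dividing, a ratio of 0.133 (0.0508 to 0.330). Spp1 (osteopontin, a secreted protein of modulated smooth muscle and of macrophages) had a UMI in 11 of the 14 DMSO cells, with a median of 37.5 and a highest of 55, and in 1 of the 12 inhibitor cells, with 2 UMIs. Its level was 2020.0 and 5.68 CPM in the dividing cells and 113 and 22.4 CPM in the other smooth muscle-like cells. Myh11 was lower in dividing than in other cells, at 2844 against 3811 CPM (DMSO) and 1216 against 4634 CPM (inhibitor), and so were Cnn1 (calponin), at 621 against 1680.2 and 1173 against 2259 CPM, and Tagln (transgelin), at 7573 against 13323 and 7995 against 15394 CPM. Col1a1 was higher in the dividing cells, at 3369.8 against 1548 and 2641 against 1093 CPM, and so was Lum, at 702 against 131 and 301 against 66.0 CPM. With like barcodes counted once, the 7 DMSO cells stood at 1022 CPM for Spp1 (a UMI in 4 of 7), 2927 for Myh11, 525 for Cnn1, 6548 for Tagln, 3698 for Col1a1 and 665 for Lum, on the same side of the other cells for each gene.

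Endothelial-like dividing cells had a smaller share of RNA from Vwf, Cytl1, Gkn3, Cd36 and Pecam1 than other endothelial-like cells. These take in genes of the aortic lining and of capillaries. The dividing cells were deeper, with medians of 20396 against 4583 UMIs (DMSO) and 39195 against 4055 UMIs (inhibitor). Counted per cell, Pecam1 had higher medians in dividing cells, 26.5 against 6 and 43.5 against 7 UMIs. Vwf (von Willebrand factor) stood at 135 against 593 CPM in dividing and other cells of the DMSO library and at 119 against 802 CPM in the inhibitor library. Cytl1, a secreted protein that marks luminal endothelium, stood at 126 against 704 and 250.3 against 2317 CPM, and had a UMI in 6 of 22 and 5 of 10 dividing cells. Of its 130 UMIs in the inhibitor dividing cells, 1 cell held 88. Gkn3 was at 6.45 against 80.9 and 38.5 against 316 CPM, with 4 and 20 UMIs in the dividing cells. Vcam1, an adhesion molecule and the luminal gene with most UMIs, was at 332 against 371 and 666 against 540.1 CPM. Cd36, a fatty acid receptor of capillaries, was at 985 against 2220.4 and 296 against 1613 CPM, and Pecam1 itself at 996 against 1581 and 1001 against 2296 CPM. Cd36 had a UMI in 4 of the 10 inhibitor dividing cells, and 1 of them held 140 of its 154 UMIs. Kdr, the receptor for vascular endothelial growth factor, was at 311 against 571 and 250.3 against 426 CPM. Cdh5, another gene of the endothelial panel, was nearly level, at 1085 against 1146 and 905 against 959 CPM. Of the 22 DMSO endothelial-like dividing cells 12 lay in cluster 21, and of the 10 in the inhibitor library 2 did. Among the 9 T cell-like DMSO dividing cells, Cd4 had a UMI in 4, Cd8a in 3, Foxp3, the regulator of regulatory T cells, in 2, Gzmb, a protease of killer cells, in 2, and Trdc, the delta chain, in 1. None of these subset genes was in most of the cells, and the summed 576 CPM of Gzmb came from 2 of them.

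The mitotic and S phase lists differed in weight between lineages. Summed mitotic genes stood at 3921 and 4635 CPM in DMSO and inhibitor fibroblast-like dividing cells, 4903 and 5053 in macrophage-like, 4557 and 2420.1 in endothelial-like and 4180.5 and 4666 in smooth muscle-like cells. The S phase lists stood at 1360.4 and 1942 CPM in fibroblast-like, 2812 and 3141 in macrophage-like, 2230.0 and 1409 in endothelial-like and 806 and 2283 in smooth muscle-like cells, and at 4031 CPM in the 9 T cell-like DMSO cells. By cells, at least 4 of the 8 S phase genes had a UMI in 45 of 74 and 30 of 41 fibroblast-like, 29 of 48 and 19 of 29 macrophage-like, 14 of 22 and 6 of 10 endothelial-like and 3 of 14 and 10 of 12 smooth muscle-like dividing cells. Counted once, 3 of 7 DMSO smooth muscle-like cells passed. Macrophage-like dividing cells had more S phase RNA per mitotic RNA than fibroblast-like ones in each library, at a lower depth per cell (medians of 13037 and 10670 UMIs against 37023 and 36108).

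Among fibroblast-like cells, dividing cells had a larger share of RNA from most measured mitotic genes and a smaller share from several adventitial fibroblast genes. Of 3217 genes with enough UMIs, 175 (5.44%) were at least 2-fold higher in dividing cells in each library and 132 (4.10%) at least 2-fold lower, computed after adding 5 CPM. The rule chose these cells by genes of the same contrast, so the counts are a description. A gene could also pass the minimum of 50 CPM through the dividing cells alone, as Ccnb2 did. That the measured members of a cell cycle list were higher was therefore partly fixed in advance. Of 112 listed cell cycle genes that the rule did not use, 62 were measured, 52 higher and 1 lower, with medians of 2.86 and 3.33 on the log2 scale, against 0.15 and 0.15 over all genes. All 4 measured mitotic kinases and cyclins were higher, as were 8 of 8 kinetochore genes, 9 of 9 kinesin and spindle genes, 10 of 10 condensin and chromatin genes, 3 of 3 licensing genes and 6 of 7 DNA synthesis genes. Ccnb2, the second mitotic cyclin B, had 0 to 40 UMIs (median 5) in DMSO and 0 to 25 (median 5) in inhibitor dividing cells, at 182 against 2.97 CPM and 171 against 1.44 CPM in dividing and other cells. Prc1, which bundles the central spindle, had medians of 2 and 7 UMIs, at 238 against 2.97 and 275 against 2.53 CPM. Cenpa, the histone of centromeres, was at 255 against 5.03 and 327 against 3.47 CPM, and Pcna, the sliding clamp, at 154 against 53.3 and 199 against 53 CPM. The highest genes outside the lists were led by Pclaf, a partner of Pcna, with medians of 6 and 12 UMIs and 247 against 2.62 and 412 against 2.48 CPM, and Cdca3, a trigger of mitotic entry, with medians of 4 and 4 UMIs and 158 against 1.92 and 153 against 0.891 CPM. In contrast, none of the 4 measured G1 cyclins and kinases passed 2-fold, with medians of 0.02 and -0.09. Cdk4 stood at 189 against 97.9 and 214 against 109 CPM, and Ccnd1 at 58.0 against 49.1 and 48.7 against 66.0 CPM. Among inhibitors of cyclin-dependent kinases, Cdkn1c (p57) took a smaller share of the RNA in dividing cells, at 61.3 against 144 and 16.4 against 178 CPM. Cdkn2d (p19) took a larger share, at 64.5 against 28.0 and 159 against 32.1 CPM.

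The lower genes included those of a fibroblast subset marked by Fmod (fibromodulin, a collagen-binding proteoglycan). All 3 measured genes of that list were lower, with medians of -2.05 and -2.28. Fmod had a UMI in 11 of 74 and 17 of 41 dividing cells and stood at 16.4 against 83.6 and 63.1 against 325 CPM, and Rbp4, the retinol carrier, at 39.4 against 155 and 141 against 1266 CPM. Gsn (gelsolin, an actin-severing protein) had 1 to 338 UMIs (median 19) and 5 to 231 (median 26) in dividing cells and stood at 989 against 3898 and 1154 against 8395 CPM. Fmo2, an oxidising enzyme, was at 87.9 against 653 and 206 against 2146 CPM, Inmt, a methyltransferase, at 9.84 against 140.5 and 1.31 against 277 CPM, and Gas6, a ligand of Axl, at 203 against 1153 and 210.4 against 898 CPM. Dcn itself took a smaller share of the RNA in dividing cells, at 5384 against 13655 and 4441 against 14648 CPM, although each of these cells had it. Counted per cell, its medians were 168 against 186 UMIs (DMSO) and 138 against 121 UMIs (inhibitor). Pi16, a marker of adventitial progenitors, stood at 756 against 1796 and 443 against 1558 CPM. Of 7 measured immediate early genes 5 took a smaller share of the RNA. Fos stood at 241 against 586 and 89.4 against 357 CPM, and Egr1 at 286 against 713 and 131 against 421 CPM. The dividing cells were deeper, with medians of 37023 against 13258 UMIs (DMSO) and 36108 against 8425 UMIs (inhibitor). A smaller share need not mean fewer UMIs per cell, which in this contrast was compared for Dcn alone. None of the 8 heat shock genes and none of the 4 measured inflammatory fibroblast genes passed 2-fold.

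Acta2 and Cthrc1 were higher in dividing fibroblast-like cells. Acta2 was at 1019 against 338 and 1591 against 497 CPM in dividing and other cells. Cthrc1, a secreted marker of activated fibroblasts, had medians of 5.5 and 2 UMIs, a highest of 152 in each library, and 498 against 179 and 485 against 111 CPM. It was the 1 of 5 myofibroblast genes past 2-fold in both libraries, with list medians of 0.60 and 1.10. Postn stood at 991 against 650.2 and 681 against 316 CPM. Col1a1 was nearly level, at 10419.5 against 9678 and 9068 against 8956 CPM. The summed smooth muscle panel was 1674 against 733 and 2648 against 1110.2 CPM, with 8 of its 8 markers detected in each group. These genes moved with cluster 14, which held 23 of 74 and 25 of 41 dividing but 57 of 2387 and 14 of 2088 other fibroblast-like cells. Outside it, Acta2 stood at 676 against 273 and 557 against 468 CPM and Cthrc1 at 525 against 179 and 203 against 107 CPM. Inside it, Acta2 turned, at 1670.3 against 2358 and 2036 against 2295 CPM, and Cthrc1 stood at 449 against 187 and 606 against 401 CPM. Counted once, 184 and 137 genes passed, of which 174 and 131 were among those above.

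Macrophage-like dividing cells had more RNA of the mitotic and of the replication lists than other macrophage-like cells. Of 3442 genes with enough UMIs, 228 (6.62%) were at least 2-fold higher in each library and 36 (1.05%) at least 2-fold lower. Of the 112 cell cycle genes 75 were measured and 68 higher, none lower, with medians of 3.09 and 3.03 against 0.06 and 0.04 over all genes. All 8 measured licensing genes were higher, with medians of 2.23 and 1.93, as were 10 of 10 DNA synthesis and 14 of 14 chromatin genes. Here too a gene could pass the minimum through the dividing cells alone, as Tyms did, so these tallies were partly fixed in advance. Gmnn (geminin, which blocks a second round of replication) stood at 185 against 20.6 CPM in DMSO and 207 against 31.4 CPM in inhibitor cells, Mcm5, of the replicative helicase, at 155 against 13.4 and 171 against 21.0 CPM, and Tyms, which makes thymidylate, at 139 against 5.57 and 150.3 against 14 CPM. Hist1h1b, a linker histone made in S phase, stood at 514 against 3.55 and 499 against 4.84 CPM, and Pclaf at 480.4 against 2.21 and 457 against 6.72 CPM, with medians of 5 and 4 UMIs per dividing cell. Here 2 inhibitors of cyclin-dependent kinases were higher. Cdkn2c (p18) was at 95.5 against 9.69 and 114 against 10.5 CPM and Cdkn2d at 114 against 25.1 and 162 against 24.2 CPM. Unlike in fibroblast-like cells, none of the 8 immediate early genes passed 2-fold, with medians of -0.21 and -0.31. Depth differed less here, with medians of 13037 against 5986 and 10670 against 4949 UMIs in dividing and other cells. That the lineages differ in these genes was not tested, nor was the part of depth.

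The few lower genes in macrophage-like dividing cells came from several subsets. Plac8, a marker of monocytes, had a UMI in 10 of 48 and 1 of 29 dividing cells and stood at 35.1 against 220.0 and 3.01 against 66.6 CPM. Il1b (interleukin 1 beta) was at 36.5 against 129 and 15 against 90.8 CPM, the chemokine Ccl6 at 521 against 1479.8 and 198 against 1191 CPM, and Ednrb, an endothelin receptor, at 2.81 against 54.4 and 0 against 66.1 CPM. Of 5 measured resident macrophage genes 3 were lower, F13a1, Cd163 and Folr2, with list medians of -1.01 and -1.13, and of 8 lipid-handling genes 2 were lower, Spp1 and Ctsd. Spp1 stood at 423 against 3266 and 842 against 1781 CPM, and 1 inhibitor cell held 77.9% of its dividing-cell UMIs. None of the 4 MHC class II genes passed 2-fold in both libraries. Counted once, 227 and 37 genes passed, and 227 and 36 were shared.

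**Figure D4:**
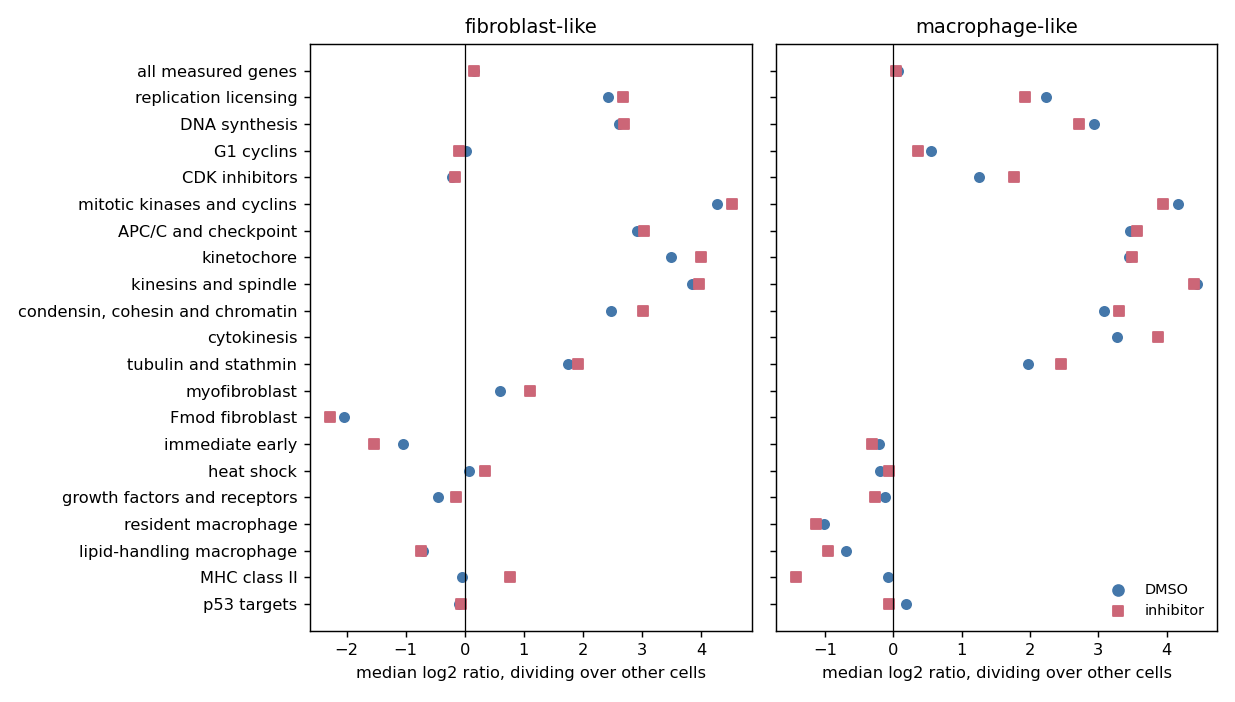
Median log2 ratio (dividing over other cells, after adding 5 CPM) of the measured members of each gene list in fibroblast-like and macrophage-like cells of the DMSO and inhibitor libraries. A member could count as measured through the dividing cells alone. The kinetochore list lies at 3.49 and 4 in fibroblast-like and at 3.45 and 3.50 in macrophage-like cells, while the G1 cyclins lie at 0.02 and -0.09 in fibroblast-like cells and at 0.55 and 0.36 in macrophage-like cells.

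Between the libraries, few cell cycle genes of dividing fibroblast-like cells passed 2-fold, but the summed lists were higher in the inhibitor library. The S phase lists stood at 1360.4 CPM (DMSO) and 1942 CPM (inhibitor), and the mitotic genes at 3921 and 4635 CPM. Of 74 measured cell cycle genes, 1 was at least 2-fold higher in the inhibitor library and 1 lower, with a median of 0.34 against 0.02 over all genes. Of all 3523 measured genes, 61 (1.73%) were at least 2-fold higher and 123 (3.49%) at least 2-fold lower with a counting interval of the ratio that left out 1. The cells came from different clusters: of 74 DMSO cells 33 lay in cluster 4, 10 in cluster 5, 23 in cluster 14 and 6 in cluster 18, and of 41 inhibitor cells 5 lay in cluster 0, 8 in cluster 4 and 25 in cluster 14. Of 5 inflammatory fibroblast genes 4 were lower in the inhibitor library, with a median of -1.75, and the other fibroblast-like cells showed -1.94. Saa3, an acute-phase protein, had 0 to 1654 UMIs (median 2.5) in 74 DMSO cells and 0 to 403 (median 0) in 41 inhibitor cells, 2059 and 600.3 CPM, a ratio of 0.292 (0.272 to 0.313). Il33, an alarmin, had medians of 22 and 8 UMIs and 1164 and 469 CPM. Cxcl13, a chemokine for B cells, had a UMI in 22 of 74 and 4 of 41 cells and stood at 337 and 44.7 CPM, and Ptx3 at 171 and 47.3 CPM. Cxcl1, the fifth, stood at 155 and 185 CPM. It had a UMI in 53 of 74 and 18 of 41 cells, with medians of 2 and 0 and up to 65 and 188 UMIs in a cell. The chemokine Cxcl5 (29.2 and 291 CPM), the cytokine Il11 (43.8 and 201 CPM) and the adhesion molecule Selp (20.8 and 84.8 CPM) were higher, but 1 inhibitor cell held 84.9%, 98.7% and 78.3% of their UMIs. Of 8 immediate early genes 6 were lower, with a median of -1.23, against -0.73 in other fibroblast-like cells. Fos had medians of 8 and 2 UMIs and 241 and 89.4 CPM, Jun 15.5 and 7 UMIs and 598 and 285 CPM, and Egr1 9 and 3 UMIs and 286 and 131 CPM. The cells overlapped in their ranges for each of these genes. The summed macrophage panel moved the same way, at 220.2 CPM in DMSO and 57.9 CPM in inhibitor dividing fibroblast-like cells (183 and 81.6 in other fibroblast-like cells), with all 8 markers detected in each group. Its part in these differences was not tested. Inside cluster 14 Saa3 stood at 1455 and 362 CPM, Il33 at 785 and 352 and Fos at 248 and 70.5, and outside it at 2378 and 1154, 1364 and 743 and 238 and 133, lower in the inhibitor library each time.

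Of 8 heat shock genes 3, Hspb1, Hsp90aa1 and Hsph1, were higher in dividing fibroblast-like cells of the inhibitor library, with a list median of 0.87, against 0.60 in other fibroblast-like cells. Hspb1, a small heat shock protein, had 0 to 51 UMIs (median 8) in DMSO and 0 to 118 (median 23) in inhibitor dividing cells, 274 and 822 CPM, a ratio of 3 (2.74 to 3.29). Hsp90aa1, the inducible HSP90, had medians of 21 and 50 UMIs and 754 and 1558 CPM. Creld2, a protein of the endoplasmic reticulum, had medians of 2 and 7 UMIs and stood at 62.4 and 259 CPM, and at 54.6 and 239.6 CPM in other fibroblast-like cells. Fmod (16.4 and 63.1 CPM) and Rbp4 (39.4 and 141 CPM) were higher too, and again more so in other cells, where Rbp4 stood at 155 and 1266 CPM. Tagln stood at 364 and 756 CPM, but outside cluster 14 at 261 and 205 CPM. Hspb1 stood at 228 and 939 CPM inside that cluster and at 298 and 548 CPM outside it. Cdkn2d was higher, at 64.5 and 159 CPM, and Cdkn1c was lower, at 61.3 and 16.4 CPM, while in other cells it stood at 144 and 178 CPM. A single cell held most of the UMIs of 5 of the 61 higher and 2 of the 123 lower genes, and without the cell with most UMIs of each gene in each library 50 and 123 were still 2-fold apart. With like barcodes counted once, 58 and 115 genes passed, of which 58 and 114 were among those above.

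Dividing macrophage-like cells differed between the libraries mainly in subset genes. Of 95 measured cell cycle genes none passed 2-fold in either direction, with a median of 0.20 against 0.03 over all genes. Of 3858 genes, 66 (1.71%) were higher and 127 (3.29%) lower in the inhibitor library by the same rule. Of 4 MHC class II genes, which present antigen to helper T cells, 3 were lower in the dividing cells of the inhibitor library. H2-Ab1 had 0 to 345 UMIs (median 31.5) in 48 DMSO cells and 0 to 109 (median 5) in 29 inhibitor cells, 3927 and 1338 CPM, a ratio of 0.341 (0.307 to 0.377). H2-Aa had medians of 37 and 7 UMIs and 4301 and 1683 CPM, and H2-Eb1 26 and 6 UMIs and 4256 and 1497 CPM. Cd74, the invariant chain, had medians of 91.5 and 29 UMIs and 9071 and 4911 CPM, a log2 difference of -0.88 that did not pass 2-fold. Ciita, the regulator of these genes, stood at 109.6 and 18 CPM. The other macrophage-like cells showed no such gap: H2-Ab1 stood at 4061 and 3873 CPM there, and the median of the 4 MHC class II genes was -0.02, against -1.43 in dividing cells. The ranges of the cells overlapped, and the difference between dividing and other cells could not be tested with 1 library a group.

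Of 6 measured resident macrophage genes, F13a1, Cd163 and Lyve1 were higher in the dividing cells of the inhibitor library and 3 did not pass, with a list median of 1.28, against 1.01 in other macrophage-like cells. F13a1, coagulation factor XIII, had a UMI in 16 of 48 and 18 of 29 cells, up to 13 and 27, and stood at 104 and 337 CPM, and Cd163, the receptor for haptoglobin and haemoglobin, at 35.1 and 132 CPM. Lyve1, a hyaluronan receptor, had a UMI in 2 of 48 and 8 of 29 cells, at 2.81 and 87.2 CPM. Its DMSO level rests on 2 UMIs, which gives a ratio of 31.0 with an interval of 7.85 to 268. Pf4, a chemokine of resident macrophages, had 0 to 32 UMIs (median 2) and 0 to 75 (median 6), 324 and 1289 CPM, against 446 and 934 CPM in other cells. Ccl12, a chemokine for monocytes, stood at 213 and 836 CPM and Hspb1 at 35.1 and 171 CPM. Ccr2, the receptor that brings monocytes into tissue, was lower, at 650.3 and 313 CPM. Among lipid-handling genes Fabp5, a fatty acid carrier, stood at 2131 and 304 CPM and Gpnmb, a lysosomal glycoprotein, at 891 and 316 CPM, but 1 cell held 58.5% and 90.1% of the Fabp5 UMIs and 76.2% and 98.1% of those of Gpnmb. Smooth muscle RNA was also higher: the summed panel stood at 187 and 489.9 CPM in dividing cells and at 335 and 690.4 CPM in other cells, with 8 of 8 markers detected in each group, and Acta2 and Tagln are 2 of the 66 higher genes. Its part in the other differences was not tested. A single cell held most of the UMIs of 4 of the 66 higher and 14 of the 127 lower genes, and without the cell with most UMIs of each gene in each library 57 and 117 were still 2-fold apart.

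**Figure D5:**
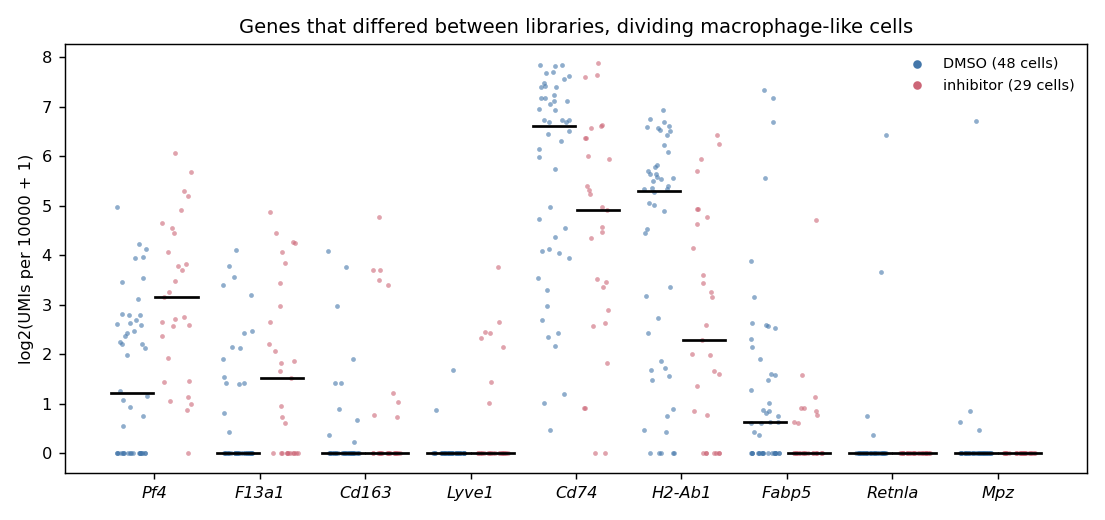
Levels of MHC class II, resident macrophage and other genes in dividing macrophage-like cells of the DMSO (48 cells) and inhibitor (29 cells) libraries. Over the summed cells, H2-Ab1 stood at 3927 and 1338 CPM in dividing cells. In other macrophage-like cells, which are not drawn, it stood at 4061 and 3873 CPM.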

How the data were processed

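Single-cell RNA was measured in 2 libraries, 1 per group. The deposited matrices hold UMI counts per gene and barcode, which the authors made with Cell Ranger (version 6.1.1, per the file headers). GRCm38 and Seurat are named in the submitters' processing notes. The title initials were matched to DMSO and inhibitor by means of the design text. Cells, the rule and lineages are described in the results. A lineage needed at least 3 markers of a panel and a score (panel UMIs per 10000, divided by the mean of the 50 highest cells) of at least 0.1, and a cell was mixed where a second panel passed 0.5 of the first. The members, markers and gene lists were chosen with earlier results of these data known, and the lineage score and the limit for like barcodes (chi-square over degrees of freedom at most 1.3, barcodes of at least 3000 UMIs) after seeing the data. Clusters came from Leiden clustering without the listed genes (scanpy 1.11.5), and doublets from Scrublet, whose automatic threshold called 0 cells in the DMSO library, so both were cut at the threshold found in the inhibitor library. Gene levels are UMIs summed over cells, as CPM, and log2 ratios add 5 CPM. Genes needed at least 50 CPM in 1 sum and 30 UMIs over both. Shares have Clopper-Pearson intervals and ratios exact conditional ones. Named genes are the rule and lineage genes, the 10 highest and lowest of each comparison and up to 6 members of each list, those with most UMIs. Col1a1, Kdr, Cdh5 and Gpnmb fall outside it and were named after their values were seen. The ratio script was tested on simulated data. The alternatives were other cuts of the rule, thinning, lineage by single genes or clusters, other filters and pseudocounts, like barcodes counted once, leaving out the top cell and values inside and outside clusters 14 and 18, the last 3 kinds and the S phase cut chosen after seeing the data.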

Additional observations from a re-analysis of the deposited data

Results flagged for a closer look

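The share of dividing cells went in opposite directions in the 2 lineages with most of them. The log2 ratio of the inhibitor share to the DMSO share was -0.64 in fibroblast-like cells and 0.48 in macrophage-like cells. The difference between these ratios was not tested, since each group is 1 library. With like barcodes counted once, the interval of the ratio included 1 in each of these lineages.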

How the results depend on the processing

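No paired analysis was possible because each group is 1 library. The log2 ratio of the dividing share over all cells (inhibitor over DMSO, -0.93) lay between -1.05 and -0.71 with other cuts of the rule, thinning, filters and like barcodes counted once, and was -0.49 with the S phase genes in place of the rule. Counts that left out smooth muscle-like cells gave -0.64 (by clusters), -0.41 (and 3 other lineages left out), -0.33 and -0.21 (like barcodes counted once). Within fibroblast-like cells, lineage by cluster gave -2.12 in place of -0.64. Within endothelial-like cells, the ratio turned from -0.36 to 0.10 with at least 5 rule genes and to 0.19 with at least 6. Counts of genes past 2-fold moved by over 1.5 times when 20 CPM were added or no minimum was set. In fibroblast-like dividing cells, higher genes in the inhibitor library numbered 39 (20 CPM) or 136 (no minimum), and lower genes 442 (no minimum). In macrophage-like dividing cells they numbered 31 or 278 higher and 75 or 264 lower, and genes lower in dividing than in other macrophage-like cells 18 with 20 CPM. Without the cell with most UMIs in each library, the log2 ratio (inhibitor over DMSO dividing cells) of Il11 in fibroblast-like cells turned from 2.08 to -1.17 and that of Mmp12 in macrophage-like cells from 1.85 to -1.25. The cause of the other changes was not tested. Shares in the lineages with few dividing cells rest on 1 to 14 barcodes, which limits their precision.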
